A study of Mus musculus with 20 samples.

Results

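Glutamate and GABA receptors were described through the genes of their subunits in neurospheres, the floating balls of cells that adult mouse brain progenitors form when cultured with growth factors. The members were taken by gene symbol alone, with no use of a measured value, and came to 47 of the 36724 genes of the deposited table. They are the AMPA (Gria), kainate (Grik), delta (Grid) and NMDA (Grin) receptor subunits, the metabotropic glutamate receptors (Grm), the GABA-A and rho subunits (Gabr) and both GABA-B subunits (Gabbr). RNA was sequenced from 20 libraries of Egfl7 knockout and wild-type C57BL/6 mice aged 8 to 12 weeks, and no sphere was treated. Spheres of the subventricular zone (SVZ) were of round 1 and harvested on day 3 (3 knockout libraries, 3 wild type). Spheres of the hippocampus were of round 2 on day 5 (HC2 here; 4 knockout, 4 wild type) and of round 1 on day 5 (HC1 here; 3 knockout, 3 wild type). All donors were male except those of the HC1 wild types, which were female. All spheres grew in medium with EGF, FGF and B27 supplement, so no group shows cells without growth factors, and no source used here says which part of Egfl7 was deleted.

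AMPA, kainate and NMDA receptors are cation channels opened by glutamate, each a tetramer, and the metabotropic receptors act through G proteins. GABA-A receptors are pentameric chloride channels, and GABA-B receptors act through G proteins as a complex of Gabbr1 and Gabbr2. Neural progenitors and astrocytes carry some of these receptors outside synapses, and GABA can depolarise immature cells because their internal chloride is high. Some subunits set how a channel works: edited Gria2 blocks calcium in AMPA receptors, Grin1 is needed in every NMDA receptor, and a gamma subunit fixes the properties of most synaptic GABA-A receptors.

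Egfl7 was the check of the labels. It was listed at 0.0940, 2.86 and 0 RPKM in SVZ knockouts and 1.73, 2.99 and 0 RPKM in SVZ wild types, so the libraries labelled SVZ knockout replicate 2 and SVZ wild type replicate 3 went against their labels. It was listed at 0 in all HC2 and HC1 knockouts, against 0.996 to 1.59 RPKM in HC2 and 0.566 to 1.34 RPKM in HC1 wild types. Values are RPKM, reads scaled by gene model length and library size. Depth, estimated from the steps between low values, was such that 1 RPKM stood for 12.0 to 13.9 reads per kb of gene model in SVZ, 17.8 to 31.2 in HC2 and 11.7 to 12.9 in HC1 libraries. Progenitor genes were high but did not share an order. Nes stood at 453 to 563 RPKM in SVZ, 59.1 to 287 RPKM in HC2 and 273 to 397 RPKM in HC1 libraries. Sox2 was highest in HC2, at 74.9 to 98.4, 183 to 320 and 72.1 to 155 RPKM in SVZ, HC2 and HC1 libraries in that order. In the same order Fabp7 spanned 4814 to 8788, 3726 to 7961 and 9331 to 11410 RPKM, and Vim 1444 to 2329, 974 to 1700 and 918 to 1530 RPKM. The mean of 38 cell cycle genes, in log2(RPKM + 1), spanned 6.62 to 6.81 in SVZ, 1.75 to 5.94 in HC2 and 4.66 to 6.04 in HC1 libraries. Mki67, a proliferation marker, spanned 104.2 to 161 RPKM in SVZ, 1.03 to 68.5 RPKM in HC2 and 28.8 to 88.9 RPKM in HC1 libraries. Gfap, an astrocyte filament, spanned 0.204 to 6.42 RPKM in SVZ, 1.32 to 536 RPKM in HC2 and 2.31 to 149.5 RPKM in HC1 libraries. The neuroblast gene Dcx spanned 0.724 to 3.94, 0.463 to 10.3 and 4.93 to 8.06 RPKM, and the oligodendrocyte precursor gene Pdgfra 13.4 to 51.7, 7.69 to 45.1 and 29.4 to 70.8 RPKM, in SVZ, HC2 and HC1 libraries in that order. The microglial Cx3cr1 was listed at 0 in every library and the endothelial Cdh5 at no more than 0.034 RPKM. Other genes of these lists were not at 0. The sum of 15 microglial genes was 19.5 to 22.9 RPKM in SVZ, 31.1 to 57.35 RPKM in HC2 and 28.8 to 41.7 RPKM in HC1 libraries. That of 13 endothelial genes was 4.10 to 8.58, 1.27 to 2.925 and 2.34 to 3.63 RPKM in the same order.

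Levels divided the members sharply. Of the 47, 32 reached 0.5 RPKM in at least 3 libraries and were tested, among them all 4 AMPA, 5 kainate, 2 delta and 2 GABA-B genes, 5 of 7 NMDA, 4 of 8 metabotropic and 10 of 19 GABA-A genes. This filter drops genes low in all groups, so the counts below are over tested members, not all 47. The mean over all libraries was at least 10 RPKM for 16 members. Gabbr1, which binds GABA, was the highest at a mean of 179 RPKM, and Grm5, a Gq-coupled glutamate receptor, averaged 93.0 RPKM. Gabrg1, a gamma subunit found on glia, averaged 88.4 RPKM. The highest AMPA, kainate, delta and NMDA members were Gria2 (62.7 RPKM), Grik5 (47.3 RPKM), Grid1 (29.0 RPKM) and Grin3a (20.9 RPKM).

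The 15 members that were not tested are mostly subunits of mature neurons or of special tissues. Gabra6, which marks cerebellar granule cells, and Gabrp and Gabrr3 were listed at 0 in all 20 libraries. Grm6, the receptor of retinal bipolar cells, and the presynaptic receptors Grm2, Grm7 and Grm8 peaked at 0.032, 0.098, 0.266 and 0.115 RPKM. Gabrd, an extrasynaptic subunit, peaked at 0.11 RPKM, Gabre at 0.161 RPKM, Gabrq at 0.601 RPKM and Gabrr1 at 0.122 RPKM. Grin2d and Grin3b were low but present in every library, at 0.026 to 0.269 and 0.18 to 0.478 RPKM. At these depths a level of 0 does not show absence, since 1 read on a short gene model can be missed.

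**Figure D1:**
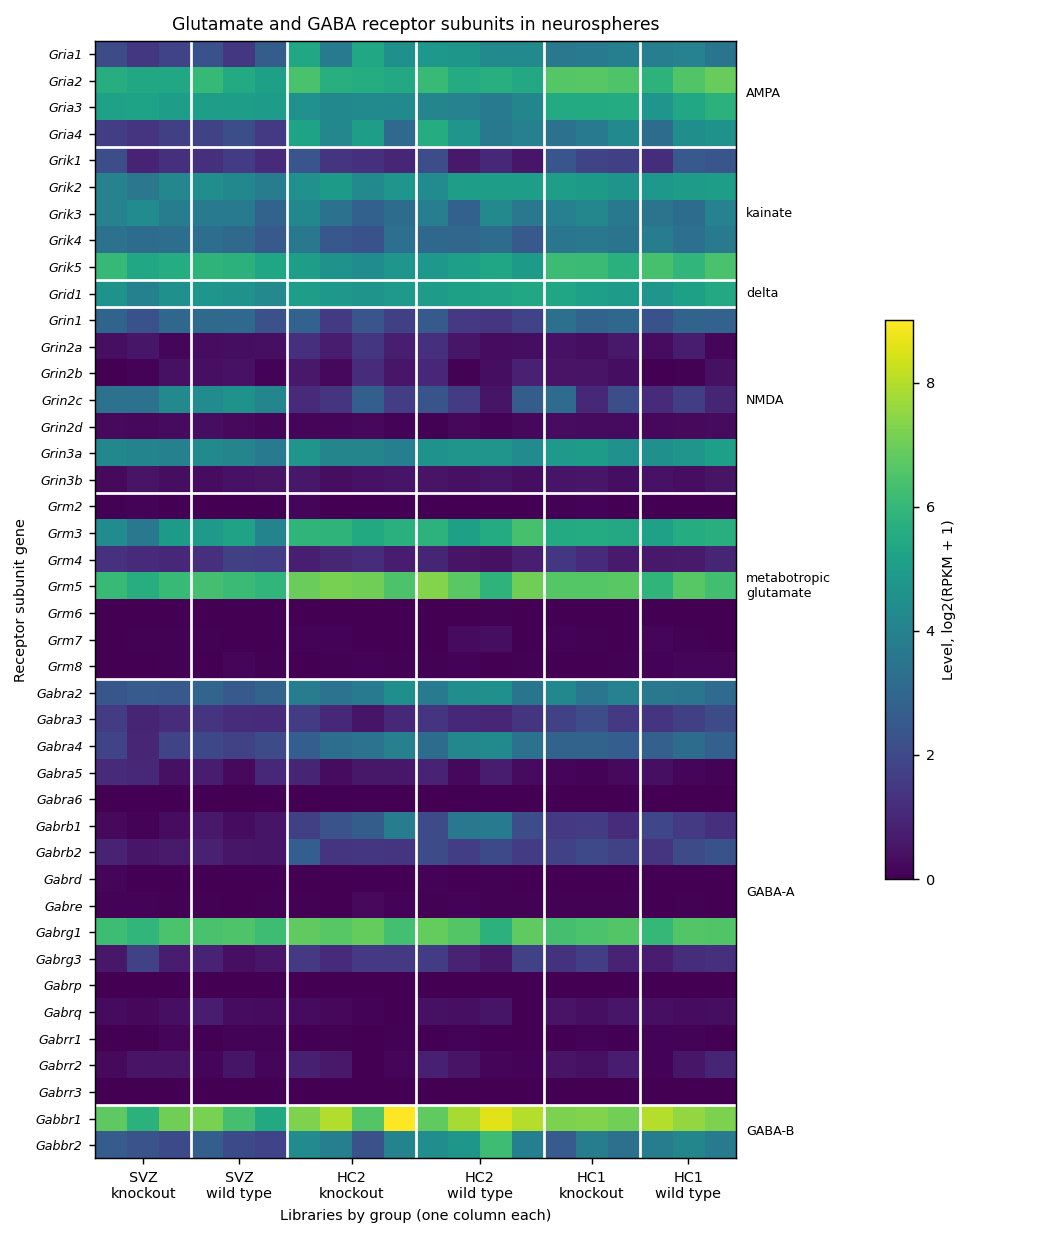
Level of 42 receptor subunit genes (rows, by family) in each of the 20 libraries (columns, by group), as log2(RPKM + 1). Gabbr1, Grm5, Gabrg1 and Gria2 are bright in every library, 13 untested members are dark, and Gria1 and Gria4 are darker in the 6 SVZ libraries.

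Each family was also described by its make-up, the share of each member in the family's summed RPKM within a library (mean ± SD over libraries; n = 6 SVZ, 8 HC2 and 6 HC1). RPKM is per length, so levels of different genes can be set side by side, though capture by exon probes can differ between genes. Gria2 held the largest AMPA share in each kind of sphere, 53.7% ± 5.30 in SVZ, 45.0% ± 6.18 in HC2 and 56.7% ± 2.72 in HC1 spheres. Gria3 held 39.8% ± 4.85 in SVZ, 15.0% ± 3.62 in HC2 and 25.8% ± 1.41 in HC1 spheres, and Gria1 3.76% ± 1.93 in SVZ, 21.4% ± 5.00 in HC2 and 8.18% ± 2.80 in HC1 spheres. The ratio of Gria1 to Gria3 was 0.0481 to 0.173 in SVZ, 0.721 to 2.20 in HC2 and 0.192 to 0.542 in HC1 libraries, and these ranges did not overlap. Among NMDA members Grin2c held 40.4% ± 9.05 in SVZ, 9.92% ± 6.51 in HC2 and 6.97% ± 5.58 in HC1 spheres, while Grin3a held 41.8% ± 8.29 in SVZ, 72.5% ± 10.7 in HC2 and 72.6% ± 8.00 in HC1 spheres. Among GABA-A members Gabrg1 held 67.6% ± 3.96 in SVZ, 60.8% ± 10.46 in HC2 and 63.8% ± 3.03 in HC1 spheres. Gabbr1 held 95.6% ± 1.60 in SVZ, 91.3% ± 5.16 in HC2 and 93.8% ± 1.89 in HC1 spheres of the GABA-B sum. Its ratio to Gabbr2 was 13.5 to 43.5 in SVZ, 5.39 to 33.4 in HC2 and 11.3 to 29.9 in HC1 libraries. These shares were not tested.

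**Figure D2:**
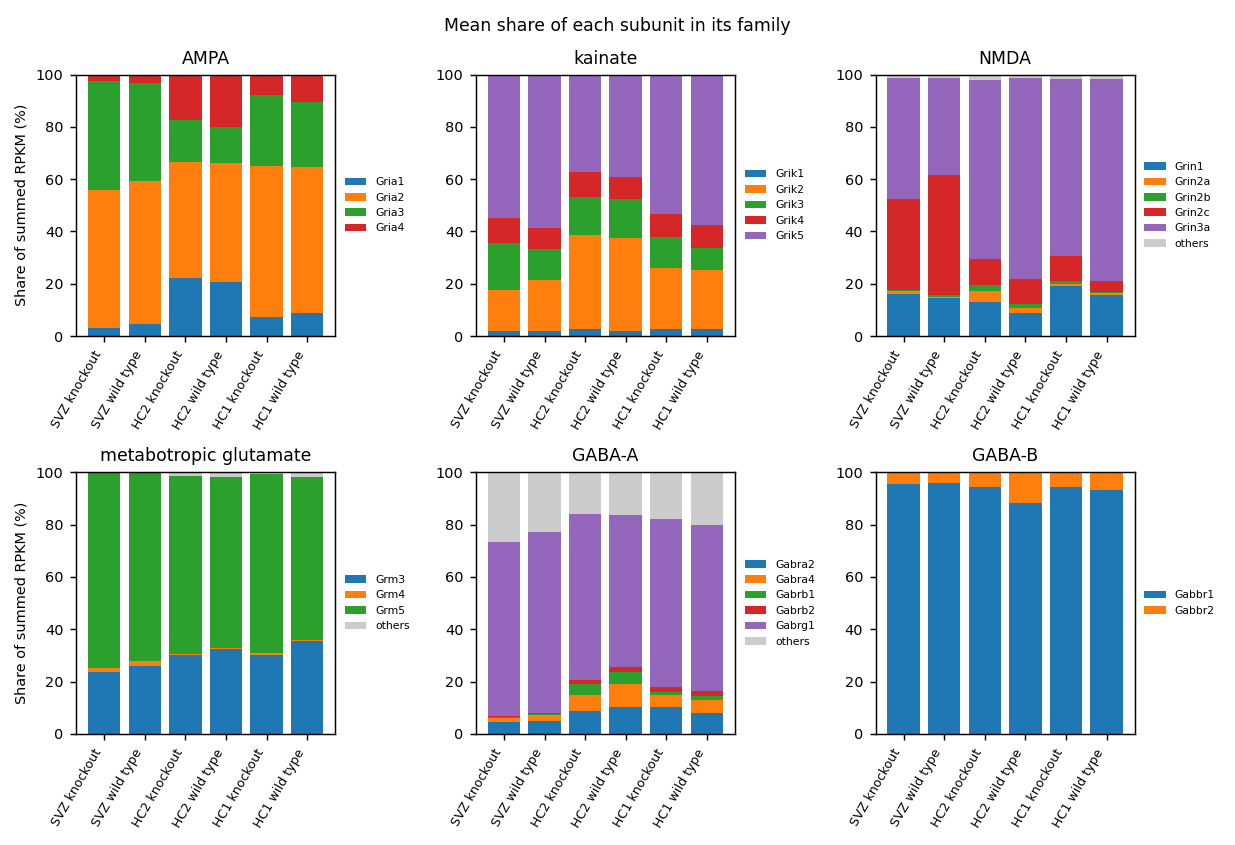
Mean share of each subunit in the summed RPKM of its family (percent, stacked to 100), for the 6 groups, with the remaining members pooled as others. Gria3 takes more of the AMPA sum in SVZ groups than elsewhere, Gria1 and Gria4 have their largest shares in HC2 groups, and Grin2c takes 40.4% of the NMDA sum in SVZ spheres on average against 6.97% in HC1 spheres.

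The study's own question, knockout against wild type, was asked in each kind of sphere with limma on log2(RPKM + 1). No member passed an adjusted p of 0.05 in SVZ, HC2 or HC1 spheres, nor over HC2 and HC1 together. Among all 16403 tested genes the share called was 0.0122% in SVZ, 0.0244% in HC2, 0.0122% in HC1 and 0.0305% over both hippocampal rounds (0.00610% higher and 0.0244% lower). At an unadjusted p of 0.05, 0 of 32 members passed in SVZ, 3 in HC2, 0 in HC1 and 3 over HC2 and HC1, where 2.31%, 3.93%, 3.94% and 5.91% of all genes did. The knockout effect in SVZ minus that in HC1, and in HC2 minus that in HC1, gave 0 calls by limma, where 0.0122% and 0.0244% of all genes were called. At an unadjusted p of 0.05 they gave 1 member (Grm4) and 0 members, against 2.88% and 2.57% of all genes. Without the libraries labelled SVZ knockout replicate 2 and SVZ wild type replicate 3 the SVZ count was again 0. Genotype and donor sex cannot be told apart in HC1.

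The members with an unadjusted p under 0.05 in HC2 were Gabbr2, Grin3a and Gria3. Gria3, an AMPA subunit encoded on the X chromosome, had 22.6, 17.3, 18.6 and 19.0 RPKM in HC2 knockouts and 16.01, 15.1, 12.2 and 16.4 RPKM in HC2 wild types. Every knockout lay above every wild type (log2 difference 0.36 ± 0.16 SE; adjusted p = 0.988; exact permutation p = 0.0286, two-sided, the smallest that 4 against 4 libraries allow). In the same comparison the 2 groups did not overlap for 1.13% of all tested genes, 0.719% higher and 0.408% lower. Gabbr2 had 19.2, 13.9, 3.71 and 15.4 RPKM in HC2 knockouts and 20.2, 26.1, 72.5 and 13.8 RPKM in HC2 wild types. These groups overlapped, the lowest value being that of knockout replicate 7 and the highest that of wild type replicate 5 (log2 difference -1.19 ± 0.47 SE; adjusted p = 0.988; exact permutation p = 0.143, two-sided). Grin3a had 24.7, 16.1, 16.1 and 13.8 RPKM in HC2 knockouts and 23.3, 24.8, 24.7 and 19.1 RPKM in HC2 wild types, and these groups overlapped too (log2 difference -0.39 ± 0.17 SE; adjusted p = 0.988; exact permutation p = 0.0857, two-sided). The cell cycle mean of these libraries spanned 3.54 to 5.73 in knockouts and 1.75 to 5.94 in wild types, and with that mean as a covariate the log2 differences were 0.22 for Gria3, -0.76 for Gabbr2 and -0.44 for Grin3a (adjusted p 0.761 to 0.838).

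In SVZ the 2 groups did not overlap for Grik3, a kainate subunit, which had 14.8, 19.4 and 12.8 RPKM with the knockout and 12.3, 12.5 and 6.29 RPKM with the wild type (log2 difference 0.59 ± 0.37 SE; adjusted p = 1). The highest and the lowest of these Grik3 values belong to the libraries that Egfl7 set against their labels, and without both the log2 difference was 0.14 (adjusted p = 1). In HC1 they did not overlap for Grin1, which had 9.03, 6.31 and 7.26 RPKM with the knockout and 3.81, 6.23 and 6.06 RPKM with the wild type (log2 difference 0.43 ± 0.36 SE; adjusted p = 0.976). Such separation was seen for 7.76% of all tested genes in SVZ (3.41% higher and 4.35% lower) and 13.7% in HC1 (6.63% higher and 7.05% lower), so 1 of 32 members in each is not more than the background.

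Members differed between kinds of sphere. SVZ minus HC1 compares regions within round 1, where the culture day differs along with the region. Of the 32 tested members 19 passed, 3 higher and 16 lower in SVZ, against 34.1% of all tested genes (14.5% higher and 19.6% lower). At an unadjusted p of 0.05, 23 members passed, against 44.8% of all genes. The median log2 difference of the 32 was -0.58, against -0.03 over all genes. Higher in SVZ were Grin2c (2.35), Gabra5 (0.57) and Grm4 (0.42). All levels of 10 members lay apart between SVZ and HC1 libraries, 1 higher and 9 lower, against 23.6% of all genes (11.4% higher and 12.2% lower). Without the libraries labelled SVZ knockout replicate 2 and SVZ wild type replicate 3, 12 members passed, 1 higher and 11 lower, against 17.9% of all genes (6.82% higher and 11.1% lower), and Gabbr2, Gabrb1, Grik5, Gabra5, Grm4 and Gabra3 were among those that no longer did (adjusted p 0.0599 to 0.160). Within knockouts alone, all of male donors, 11 members passed, all lower, against 7.06% of all genes (2.63% higher and 4.43% lower). Within wild types, which set male SVZ against female HC1 donors, 11 passed, 2 higher and 9 lower, against 17.2% of all genes (6.54% higher and 10.6% lower).

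HC2 minus HC1 compares sphere rounds of the same region and culture day, where depth also differs with the round. Of the 32 members 12 passed, 5 higher and 7 lower in HC2, against 54.3% of all tested genes (22.8% higher and 31.5% lower), a smaller share than of genes in general. At an unadjusted p of 0.05, 13 members passed, against 59.3% of all genes. After each library was rescaled by its median ratio over genes, 7 members passed as higher and 6 as lower, against 55.1% of all genes (29.3% higher and 25.8% lower), and the median of all genes shifted by 0.10 log2. The median log2 difference of the 32 was 0.07, against -0.06 over all genes. The groups did not overlap for Grik5 and Gria3, both lower, against 25.4% of all genes (8.87% higher and 16.5% lower). Within knockouts alone, all of male donors, 8 members passed, 2 higher and 6 lower, against 38.3% of all genes (16.1% higher and 22.3% lower). Within wild types, which set male HC2 against female HC1 donors, 5 passed, 2 higher and 3 lower, against 38.2% (14.8% higher and 23.4% lower). Both comparisons share the 6 HC1 libraries, so their values are given side by side and not set against each other.

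**Figure D3:**
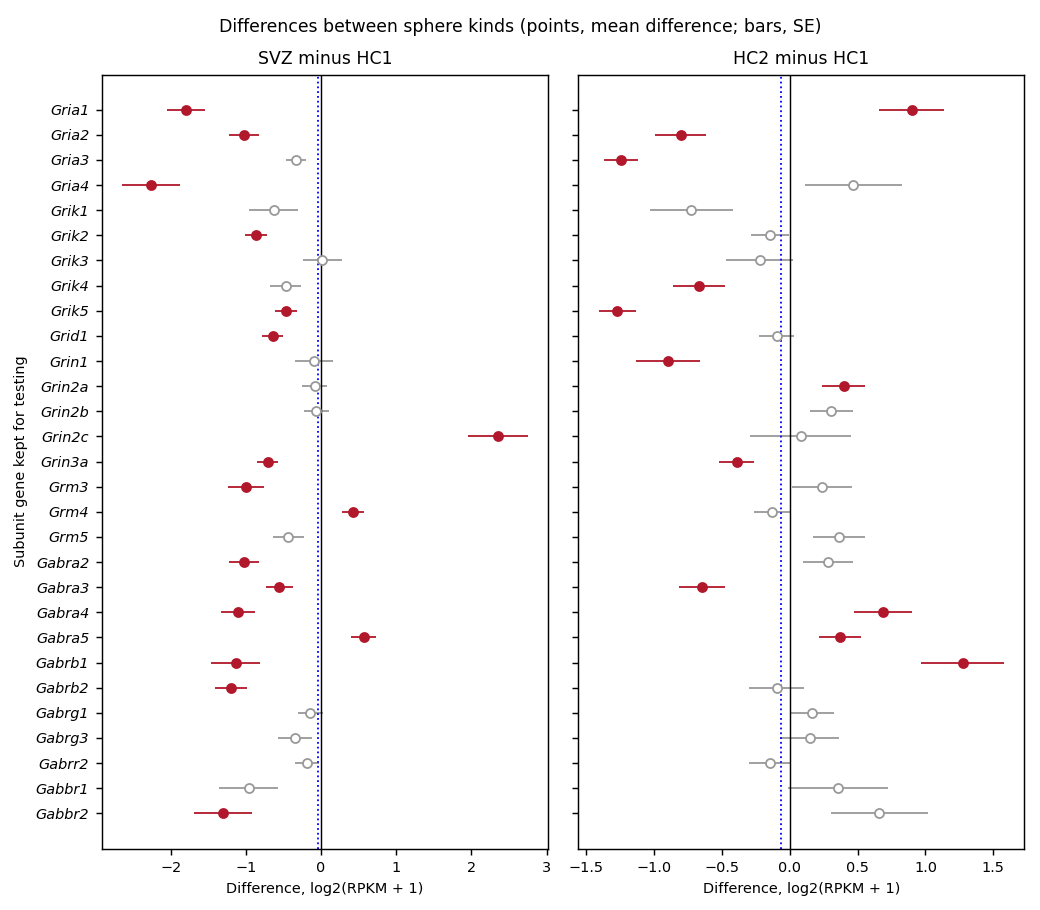
Differences of 29 tested members on the log2(RPKM + 1) scale (points, SVZ minus HC1 at left and HC2 minus HC1 at right; bars, SE), filled where the adjusted p was under 0.05, with a dotted line at the median of all tested genes. In SVZ 14 of the 17 filled points drawn lie below 0, from -0.47 for Grik5 to -2.26 for Gria4, and Grin2c stands at 2.35.

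Marker lists were counted in the same comparisons, where 34.1% of all genes were called in SVZ minus HC1 and 54.3% in HC2 minus HC1. Of 20 astrocyte genes 0 were called higher and 10 lower in SVZ than in HC1, with summed levels of 1761 to 3939 RPKM in SVZ, 6342 to 25600.0 RPKM in HC2 and 5089 to 9714 RPKM in HC1 libraries, and 9 were called higher and 1 lower in HC2. Of 15 oligodendrocyte precursor genes 0 were higher and 6 lower in SVZ, and 3 higher and 9 lower in HC2, with sums of 1979 to 2772, 2651 to 3529 and 3014 to 3977 RPKM. Of 18 tested neuroblast and neuron genes 4 were higher and 7 lower in SVZ, and 4 higher and 6 lower in HC2, with sums over the list of 27 of 319 to 360.4, 462 to 779 and 465 to 615 RPKM. Of 15 tested oligodendrocyte genes 0 were higher and 6 lower in SVZ, and 0 higher and 9 lower in HC2. Of 15 microglial, 13 endothelial and 11 pericyte or fibroblast genes, 3 of each list were tested. Of the microglial genes 1 was higher and 1 lower in SVZ, and 1 higher and 2 lower in HC2. Of the endothelial genes 1 was higher and 0 lower in SVZ, and 0 higher and 2 lower in HC2. Of the pericyte or fibroblast genes 0 were called in SVZ, and 0 were higher and 2 lower in HC2. Of 38 cell cycle genes 10 were higher in SVZ and 28 lower in HC2. The part of the cell type lists in the receptor values was not tested, and fits with the cell cycle mean as a covariate are given below. In bulk spheres fewer cells of a type and less RNA per cell cannot be told apart.

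On the log2(RPKM + 1) scale AMPA subunits held the largest decreases in SVZ. That scale understates the change of low genes such as Gabrb1, with means of 0.275 RPKM in SVZ and 1.83 RPKM in HC1 libraries. Gria4, a subunit of fast AMPA channels that is prominent in early life, had in SVZ spheres 2.08, 1.54 and 2.26 RPKM with the knockout and 2.33, 3.46 and 1.91 RPKM with the wild type. HC2 levels of Gria4 were 36.8, 17.0, 31.4 and 7.42 RPKM with the knockout and 46.8, 25.1, 11.3 and 14.1 RPKM with the wild type, and HC1 levels were 9.54, 11.9 and 18.7 RPKM with the knockout and 8.05, 21.7 and 23.6 RPKM with the wild type. All SVZ libraries lay below all HC1 libraries (log2 difference -2.26 ± 0.38 SE, adjusted p = 0.000641), whereas HC2 and HC1 overlapped widely (0.47 ± 0.36 SE, adjusted p = 0.283). Gria1, the subunit whose traffic to synapses underlies much of hippocampal plasticity, had in SVZ spheres 3.21, 1.75 and 2.53 RPKM with the knockout and 3.86, 1.78 and 5.28 RPKM with the wild type. HC2 levels of Gria1 were 40.1, 12.4, 40.8 and 22.2 RPKM with the knockout and 27.1, 26.5, 18.8 and 19.0 RPKM with the wild type, and HC1 levels were 11.1, 11.9 and 13.9 RPKM with the knockout and 13.6, 15.0 and 10.4 RPKM with the wild type. Gria1 was lower in every SVZ library than in any HC1 library (-1.80 ± 0.25 SE, adjusted p = 0.000182) and rose in HC2 (0.90 ± 0.24 SE, adjusted p = 0.00431), with overlap in knockout replicate 4.

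Gria2, the subunit that makes AMPA channels impermeable to calcium once its RNA is edited, was the most abundant. Gria2 had lowest, median and highest levels of 33.5, 42.6 and 64.1 RPKM in SVZ, 41.7, 47.4 and 84.6 RPKM in HC2 and 55.9, 95.7 and 121 RPKM in HC1 spheres. It was lower in SVZ (-1.02 ± 0.20 SE, adjusted p = 0.00165) and in HC2 (-0.80 ± 0.19 SE, adjusted p = 0.00172) than in HC1, with overlap in both. Gria3, whose gene is on the X chromosome, had in SVZ spheres 34.4, 36.2 and 31.3 RPKM with the knockout and 31.6, 32.3 and 30.6 RPKM with the wild type. The HC2 values of Gria3 are given above, and its HC1 levels were 44.5, 45.0 and 45.2 RPKM with the knockout and 25.0, 40.9 and 54.3 RPKM with the wild type. Every HC2 library lay below every HC1 library (log2 difference -1.24 ± 0.12 SE, adjusted p = 2.48e-07), while SVZ did not pass (-0.33 ± 0.13 SE, adjusted p = 0.0632). The AMPA sum was 83.2 ± 10.6 RPKM in SVZ, 119.9 ± 35.8 RPKM in HC2 and 164 ± 34.4 RPKM in HC1 spheres (SD, n = 6, 8 and 6), and the ratio of Gria2 to Gria4 was 12.8 to 27.6 in SVZ, 1.45 to 5.62 in HC2 and 4.33 to 10.2 in HC1 libraries.

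The promoters of the members with the largest decrease and the largest increase in SVZ are shown to set their letters beside those values. RefSeq gives the Gria4 promoter at chr9:4796185-4796484 and that of Grin2c, described below, at chr11:115267194-115267493, both minus strand of GRCm38.p6, from 250 bases before to 50 bases after the start. Capitals mark the GC box, GGGCGG or its reverse complement, the letters bound by Sp1-family factors.
Gria4: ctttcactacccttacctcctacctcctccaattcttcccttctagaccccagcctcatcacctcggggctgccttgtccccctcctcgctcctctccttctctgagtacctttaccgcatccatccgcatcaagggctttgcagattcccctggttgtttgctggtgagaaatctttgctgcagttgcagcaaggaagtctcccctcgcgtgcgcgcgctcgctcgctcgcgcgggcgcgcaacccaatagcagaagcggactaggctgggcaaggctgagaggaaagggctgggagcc
Grin2c: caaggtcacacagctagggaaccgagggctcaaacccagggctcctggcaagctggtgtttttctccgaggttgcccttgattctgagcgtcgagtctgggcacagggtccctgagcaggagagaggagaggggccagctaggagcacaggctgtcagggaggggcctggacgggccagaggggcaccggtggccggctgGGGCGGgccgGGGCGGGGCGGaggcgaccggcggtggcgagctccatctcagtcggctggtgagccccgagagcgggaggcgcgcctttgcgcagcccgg
Grin2c held 3 GC boxes, the last pair sharing a base, and Gria4 held none. On either strand the box is in at least 1 promoter of 18 of the 32 members for which a promoter was found, against 38.2% of 27025 genes. Other motifs were looked for in the same promoters. The E-box was in 19 of the 32 members (59.4% against 75% of genes), the TATA box in 3 (9.38% against 15.7%) and the CRE in 0 (0% against 2.03%). The NRF1 site was in 1 member, Gabrb1 (3.12% against 1.07%), and the RBPJ site in 4 (12.5% against 7.25%). Counts of 0 to 4 members are too few to set a share apart from that of all genes. None of these shares was tested. The median GC content was 59.7% over the 39 promoter windows of the members, against 52.7% over all promoters.

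Kainate subunits divide into those that form channels alone (Grik1, Grik2 and Grik3) and high-affinity subunits that need them (Grik4 and Grik5). Grik5 had in HC2 spheres 31.8, 23.1, 20.1 and 25.9 RPKM with the knockout and 26.7, 33.1, 37.9 and 28.7 RPKM with the wild type. SVZ levels of Grik5 were 64.8, 39.8 and 46.6 RPKM with the knockout and 56.9, 53.5 and 39.1 RPKM with the wild type, and HC1 levels were 70.7, 69.9 and 51.4 RPKM with the knockout and 81.5, 60.01 and 84.0 RPKM with the wild type. Every HC2 library lay below every HC1 library (log2 difference -1.27 ± 0.14 SE, adjusted p = 7.61e-07). SVZ was lower than HC1 too (-0.47 ± 0.15 SE, adjusted p = 0.0236), a call that ended without any 1 of SVZ knockout replicate 2, SVZ wild type replicate 3, HC1 knockout replicates 1 and 2 and HC1 wild type replicates 1 and 3 (adjusted p 0.0532 to 0.0703). Grik2 had lowest, median and highest levels of 10.9, 15.97 and 20.4 RPKM in SVZ, 18.8, 27.3 and 32.3 RPKM in HC2 and 24.2, 29.5 and 31.5 RPKM in HC1 spheres. Grik2 was lower in every SVZ library than in any HC1 library (-0.86 ± 0.15 SE, adjusted p = 0.000698), and HC2 did not pass (-0.15 ± 0.14 SE, adjusted p = 0.388). Grik4 had lowest, median and highest levels of 4.75, 8.26 and 9.15 RPKM in SVZ, 3.79, 6.97 and 11.2 RPKM in HC2 and 8.89, 10.98 and 13.2 RPKM in HC1 spheres. Grik4 fell in HC2 (-0.67 ± 0.19 SE, adjusted p = 0.00738) and did not pass in SVZ (-0.47 ± 0.21 SE, adjusted p = 0.0859). Grik1 ranged from 0.461 to 4.66 RPKM and Grik3 from 5.87 to 19.4 RPKM over all libraries, and neither was called in these comparisons. The kainate sum was 88.2 ± 15.3 RPKM in SVZ, 74.4 ± 14.0 RPKM in HC2 and 125 ± 16.9 RPKM in HC1 spheres.

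Delta receptors resemble glutamate receptors but do not open to glutamate. Grid1 had lowest, median and highest levels of 14.7, 22.7 and 25.5 RPKM in SVZ, 24.3, 30.5 and 40.9 RPKM in HC2 and 25.2, 33.3 and 42.3 RPKM in HC1 spheres. Grid1 was lower in SVZ with a log2 difference of -0.64 ± 0.14 SE, adjusted p = 0.00307, with overlap, and did not pass in HC2 (-0.10 ± 0.13 SE, adjusted p = 0.551).

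NMDA subunits showed the largest increase in SVZ. Grin2c, a subunit of low magnesium sensitivity known from cerebellar granule cells and astrocytes, had in SVZ spheres 9.42, 9.29 and 18.9 RPKM with the knockout and 19.2, 23.2 and 15.96 RPKM with the wild type. HC2 levels of Grin2c were 1.09, 1.62, 5.70 and 2.08 RPKM with the knockout and 4.04, 2.06, 0.420 and 5.25 RPKM with the wild type, and HC1 levels were 7.87, 1.01 and 3.40 RPKM with the knockout and 1.10, 2.16 and 0.889 RPKM with the wild type. Every SVZ library lay above every HC1 library (log2 difference 2.35 ± 0.40 SE, adjusted p = 0.000612), the nearest being HC1 knockout replicate 1. Within knockouts alone the difference was 1.59 and did not pass (adjusted p = 0.0919), and HC2 did not pass (0.08 ± 0.37 SE, adjusted p = 0.869). Grin2a and Grin2b, the main partners of Grin1 in forebrain neurons, were near the threshold, at 0.114 to 1.66 RPKM and 0.017 to 1.20 RPKM over all libraries.

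Grin1, the obligatory subunit, stayed low beside Grin3a. Grin1 had lowest, median and highest levels of 3.69, 6.72 and 7.66 RPKM in SVZ, 1.68, 2.42 and 6.14 RPKM in HC2 and 3.81, 6.27 and 9.03 RPKM in HC1 spheres. It fell in HC2 (log2 difference -0.90 ± 0.23 SE, adjusted p = 0.0039) and did not pass in SVZ, and in HC2 it overlapped HC1. Grin3a had lowest, median and highest levels of 12.5, 15.9 and 18.7 RPKM in SVZ, 13.8, 21.2 and 24.8 RPKM in HC2 and 21.9, 26.7 and 32.5 RPKM in HC1 spheres. Grin3a, a subunit that lowers calcium entry, was lower in every SVZ library than in any HC1 library (-0.71 ± 0.14 SE, adjusted p = 0.00151). It was also lower in HC2 (-0.39 ± 0.13 SE, adjusted p = 0.0172), though not without HC1 wild type replicate 3 (adjusted p 0.0589) or after rescaling (adjusted p = 0.0706). The ratio of Grin3a to Grin1 was 2.08 to 4.08 in SVZ, 3.84 to 14.7 in HC2 and 3.08 to 5.75 in HC1 libraries. Grin2a rose in HC2 (0.40 ± 0.16 SE, adjusted p = 0.0402), a call that ended without any 1 of HC2 knockout replicates 1 and 7, HC2 wild type replicates 2 and 3, HC1 knockout replicates 1 and 2 and HC1 wild type replicates 1 and 3 (adjusted p 0.0507 to 0.102).

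Metabotropic receptors couple to Gq (Grm5) or to Gi (Grm3 and Grm4). Grm5 is the receptor of immature astrocytes and progenitors. Grm5 had lowest, median and highest levels of 47.8, 66.1 and 81.1 RPKM in SVZ, 56.4, 127 and 159 RPKM in HC2 and 58.5, 97.5 and 102 RPKM in HC1 spheres. It did not pass in SVZ (-0.43 ± 0.20 SE, adjusted p = 0.109) or in HC2 (0.36 ± 0.19 SE, adjusted p = 0.121), where rescaling gave 0.49 (adjusted p = 0.0332) and leaving out HC2 wild type replicate 5 gave 0.51 (adjusted p = 0.00732). Grm3 had lowest, median and highest levels of 11.03, 23.7 and 35.6 RPKM in SVZ, 33.5, 53.6 and 82.6 RPKM in HC2 and 34.9, 45.0 and 50.4 RPKM in HC1 spheres. Grm3, the astrocytic Gi-coupled receptor, was lower in SVZ with overlap (-0.997 ± 0.24 SE, adjusted p = 0.00549). Grm4 was slightly higher in SVZ (0.42 ± 0.15 SE, adjusted p = 0.035), a call that ended without any 1 of SVZ knockout replicates 1 and 2, SVZ wild type replicates 2 and 3, HC1 knockout replicates 2 and 3 and HC1 wild type replicates 1 and 2 (adjusted p 0.0529 to 0.0955).

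GABA-A subunits lie in gene clusters. On chromosome 5 the genes Gabrg1, Gabra2, Gabra4 and Gabrb1 span 1399 kb of GRCm38 with 2 other genes between them, and all 4 were tested. The summed level of the chromosome 5 cluster spanned 65.7 to 97.8 RPKM in SVZ, 107 to 145 RPKM in HC2 and 82.0 to 117 RPKM in HC1 libraries.

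Gabrb1, which builds the GABA binding site with an alpha subunit, had in SVZ spheres 0.168, 0.0570 and 0.229 RPKM with the knockout and 0.547, 0.228 and 0.420 RPKM with the wild type. HC2 levels of Gabrb1 were 2.27, 3.94, 5.25 and 13.0 RPKM with the knockout and 3.31, 11.3, 11.9 and 3.34 RPKM with the wild type, and HC1 levels were 1.80, 1.99 and 1.19 RPKM with the knockout and 2.80, 1.89 and 1.30 RPKM with the wild type. SVZ lay wholly below HC1 (log2 difference -1.14 ± 0.33 SE, adjusted p = 0.0144) and HC2 was higher with overlap (1.27 ± 0.31 SE, adjusted p = 0.00204). Gabra4, an alpha subunit of extrasynaptic receptors, had in SVZ spheres 2.55, 0.949 and 2.63 RPKM with the knockout and 2.84, 2.44 and 3.22 RPKM with the wild type. HC2 levels of Gabra4 were 5.53, 8.48, 9.73 and 14.1 RPKM with the knockout and 8.12, 17.0, 18.4 and 9.29 RPKM with the wild type, and HC1 levels were 6.28, 6.36 and 5.38 RPKM with the knockout and 5.71, 8.07 and 5.75 RPKM with the wild type. It was lower in SVZ without overlap (-1.11 ± 0.23 SE, adjusted p = 0.00202) and higher in HC2 with overlap (0.69 ± 0.21 SE, adjusted p = 0.011). The ratio of Gabra4 to Gabrb1 was 5.19 to 16.6 in SVZ, 1.09 to 2.78 in HC2 and 2.04 to 4.52 in HC1 libraries.

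Gabra2 had lowest, median and highest levels of 4.31, 4.91 and 6.71 RPKM in SVZ, 9.90, 12.7 and 22.0 RPKM in HC2 and 7.93, 10.9 and 17.2 RPKM in HC1 spheres. Gabra2, an alpha subunit of immature and adult receptors, was lower in every SVZ library than in any HC1 library (-1.02 ± 0.20 SE, adjusted p = 0.00137) and did not pass in HC2 (0.28 ± 0.18 SE, adjusted p = 0.2). Gabrg1 had lowest, median and highest levels of 59.6, 79.1 and 90.4 RPKM in SVZ, 54.8, 105 and 117 RPKM in HC2 and 62.4, 90.6 and 96.8 RPKM in HC1 spheres. Gabrg1 did not pass in SVZ (-0.14 ± 0.17 SE, adjusted p = 0.55) or HC2 (0.16 ± 0.16 SE, adjusted p = 0.402).

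**Figure D4:**
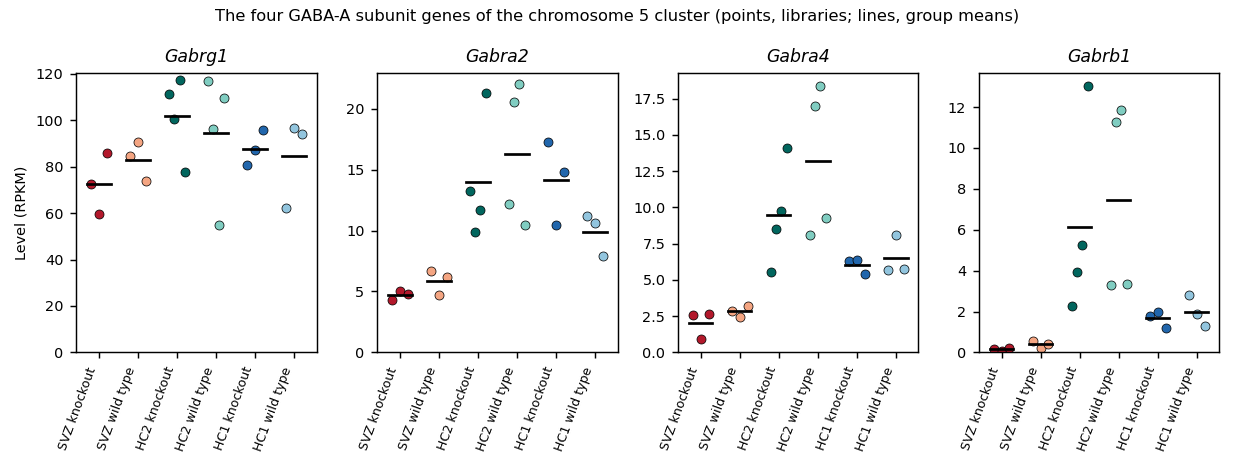
Level in RPKM of the 4 GABA-A subunit genes on chromosome 5, in map order, for the 6 groups (points, libraries; lines, group means). Gabra2, Gabra4 and Gabrb1 are lowest in the SVZ libraries, and Gabra4 and Gabrb1 reach their highest values, 18.4 and 13.0 RPKM, in HC2.

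The starts of Gabra4, on the minus strand, and Gabrb1, on the plus strand, face each other, and in the deposited positions the 2 genes share 253 bases. Since no source used here says whether strand was used in counting, reads in that stretch may count for either gene. Their promoters are shown because they lie beside each other and both genes were called lower in SVZ and higher in HC2. RefSeq places that of Gabra4 at chr5:71658259-71658558 (minus strand) and the first of Gabrb1 at chr5:71657671-71657970 (plus strand), GRCm38.p6, with GC boxes again in capitals.
Gabra4: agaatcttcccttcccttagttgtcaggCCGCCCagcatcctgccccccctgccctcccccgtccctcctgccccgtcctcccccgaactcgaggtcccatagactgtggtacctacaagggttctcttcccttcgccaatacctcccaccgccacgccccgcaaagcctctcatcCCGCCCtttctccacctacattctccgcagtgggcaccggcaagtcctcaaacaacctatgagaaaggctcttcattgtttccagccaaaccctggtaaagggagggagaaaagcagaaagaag
Gabrb1: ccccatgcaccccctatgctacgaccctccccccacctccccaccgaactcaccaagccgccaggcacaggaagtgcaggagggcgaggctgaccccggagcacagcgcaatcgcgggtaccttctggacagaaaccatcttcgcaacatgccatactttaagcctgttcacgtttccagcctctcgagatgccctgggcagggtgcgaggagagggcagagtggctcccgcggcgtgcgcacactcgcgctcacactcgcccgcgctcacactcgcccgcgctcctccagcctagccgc
Gabra4 held 2 GC boxes, both as the reverse complement, and Gabrb1 held none, with 12 and 25 CG dinucleotides in 300 bases.

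Other GABA-A members were low. Gabrb2 was lower in every SVZ library than in any HC1 library (-1.20 ± 0.21 SE, adjusted p = 0.000853). Gabrb2 had lowest, median and highest levels of 0.438, 0.531 and 0.832 RPKM in SVZ, 1.54, 2.06 and 5.48 RPKM in HC2 and 1.64, 2.68 and 3.87 RPKM in HC1 spheres. Gabra3 had lowest, median and highest levels of 0.895, 1.22 and 1.98 RPKM in SVZ, 0.419, 1.06 and 2.06 RPKM in HC2 and 1.64, 2.35 and 3.42 RPKM in HC1 spheres. Gabra3, an alpha subunit of early development on the X chromosome, was lower in SVZ (-0.56 ± 0.18 SE, adjusted p = 0.0255) and in HC2 (-0.65 ± 0.17 SE, adjusted p = 0.00389). The SVZ call of Gabra3 ended without any 1 of SVZ knockout replicate 2, SVZ wild type replicate 3, HC1 knockout replicate 2 and HC1 wild type replicate 3 (adjusted p 0.0590 to 0.0706). Gabra5, an alpha subunit of tonic inhibition in the hippocampus, was higher in both SVZ (0.57 ± 0.16 SE, adjusted p = 0.0147) and HC2 (0.37 ± 0.15 SE, adjusted p = 0.0487) at levels of 0.056 to 1.16 RPKM. The HC2 call of Gabra5 ended without any 1 of HC2 knockout replicates 1, 7 and 8, HC2 wild type replicates 2 and 5, HC1 knockout replicates 1, 2 and 3 and HC1 wild type replicates 2 and 3 (adjusted p 0.0614 to 0.101). Gabrg3 ranged from 0.279 to 2.44 RPKM and Gabrr2 from 0 to 0.913 RPKM, and neither was called.

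GABA-B receptors need Gabbr1 to bind GABA and Gabbr2 to reach the surface and couple to G proteins. Gabbr1 had in SVZ spheres 108, 53.8 and 132 RPKM with the knockout and 146, 80.8 and 43.8 RPKM with the wild type. HC2 levels of Gabbr1 were 153, 247, 95.5 and 513 RPKM with the knockout and 109.6, 227, 391 and 254 RPKM with the wild type, and HC1 levels were 148, 157 and 136 RPKM with the knockout and 255, 188 and 149 RPKM with the wild type. The spread within groups was wide, up to 513 RPKM in HC2 knockout replicate 8, and the gene did not pass in SVZ (-0.96 ± 0.39 SE, adjusted p = 0.0681). Gabbr2 had in SVZ spheres 5.21, 3.97 and 3.04 RPKM with the knockout and 5.68, 3.06 and 2.50 RPKM with the wild type. The HC2 values of Gabbr2 are given above, and its HC1 levels were 4.96, 12.8 and 8.90 RPKM with the knockout and 13.1, 16.6 and 12.1 RPKM with the wild type. It was lower in SVZ, with overlap (-1.30 ± 0.38 SE, adjusted p = 0.0162), and did not pass in HC2 (0.66 ± 0.36 SE, adjusted p = 0.128), where it did without HC2 knockout replicate 7 (0.89; adjusted p = 0.0218).

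Libraries of the same group differed widely in proliferation, so each member's slope on the cell cycle mean was fitted within groups (log2 units of the member per log2 unit of the mean). Of the 32 members 12 passed, 7 with a positive and 5 with a negative slope, against 32.9% of all tested genes (20.0% positive and 12.9% negative), and 18 passed an unadjusted p of 0.05, against 42.2%. Positive slopes belonged to Gria4 (0.56 ± 0.11 SE, adjusted p = 0.000938), Grik1 (0.35 ± 0.12), Grin1 (0.34 ± 0.08), Grm5 (0.27 ± 0.07 SE, adjusted p = 0.00429), Grin2a (0.25 ± 0.05), Gabrg1 (0.23 ± 0.05 SE, adjusted p = 0.00363) and Grin2b (0.21 ± 0.06). Negative slopes included those of Gabbr1 (-0.54 ± 0.12 SE, adjusted p = 0.00352), Gabrb1 (-0.45 ± 0.10 SE, adjusted p = 0.0027), Gabra4 (-0.26 ± 0.08 SE, adjusted p = 0.0228) and Grik2 (-0.17 ± 0.06). A negative slope means a higher level in libraries with a lower cell cycle mean. Astrocyte genes had 12 of 20 negative slopes and 1 positive, and their part in these slopes was not tested.

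The slopes rest on HC2, where the mean varied most. Among HC2 libraries alone 8 members passed, 5 positive and 3 negative, against 23.7% of all genes (15.6% positive and 8.11% negative). Without HC2 0 members passed by limma at the adjusted threshold, where 2.34% of all genes did (1.74% positive and 0.597% negative). At an unadjusted p of 0.05 there were 6 members. The share of all genes at that p was not counted, so no excess can be read from them. Without HC2 wild type replicate 2 the count was 7, against 17.0% of all genes. The slope of Gabra4 turned to 0.14 without HC2 (adjusted p = 0.885). The other called slopes kept their sign without HC2, among them those of Gria4 (1.22), Gabrg1 (0.48), Gabrb1 (-0.57) and Grik2 (-0.02; adjusted p 0.0841 to 0.992 for these). The call of Gabra4 ended without any 1 of HC2 knockout replicates 1 and 8 and HC2 wild type replicates 2 and 5 (adjusted p 0.0508 to 0.127). That of Grik1 ended without any 1 of HC2 knockout replicates 1 and 8, HC2 wild type replicates 2 and 3 and HC1 wild type replicate 1 (adjusted p 0.0579 to 0.398), and that of Grik2 without either of HC2 knockout replicate 7 and HC2 wild type replicate 2 (adjusted p 0.0627 to 0.396). The call ended for Grin2b without HC2 wild type replicate 2 (adjusted p 0.106), for Grin2a without the same library (adjusted p 0.0510) and for Grm5 without HC2 wild type replicate 5 (adjusted p 0.0512).

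With the cell cycle mean as a covariate, SVZ minus HC1 called 19 members, 1 higher and 18 lower, against 23.8% of all genes (8.94% higher and 14.9% lower). The mean did not overlap between SVZ (6.62 to 6.81) and HC1 libraries (4.66 to 6.04), and its slope rests on HC2. The SVZ fit therefore extrapolates, and region and cell cycle mean cannot be told apart in it. HC2 minus HC1 called 13, 7 higher and 6 lower, against 50.3% of all genes (22.3% higher and 28.0% lower). In that fit Gria4 (1.29), Grm5 (0.76), Gabrg1 (0.50) and Grin2b (0.61) were called higher in HC2 and Grik2 (-0.39) lower. Gabrb1 (0.62; adjusted p = 0.0546), Gabra4 (0.31; adjusted p = 0.223), Grin1 (-0.40; adjusted p = 0.108) and Grin3a (-0.33; adjusted p = 0.0924) no longer passed there. In SVZ, Grm5 (-0.74), Gabrg1 (-0.40), Gria3 (-0.46), Grik1 (-1.02) and Grin2a (-0.36) were called lower, while Gabbr2, Gabrb1, Grik5, Gabra5 and Grm4 were not called.

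**Figure D5:**
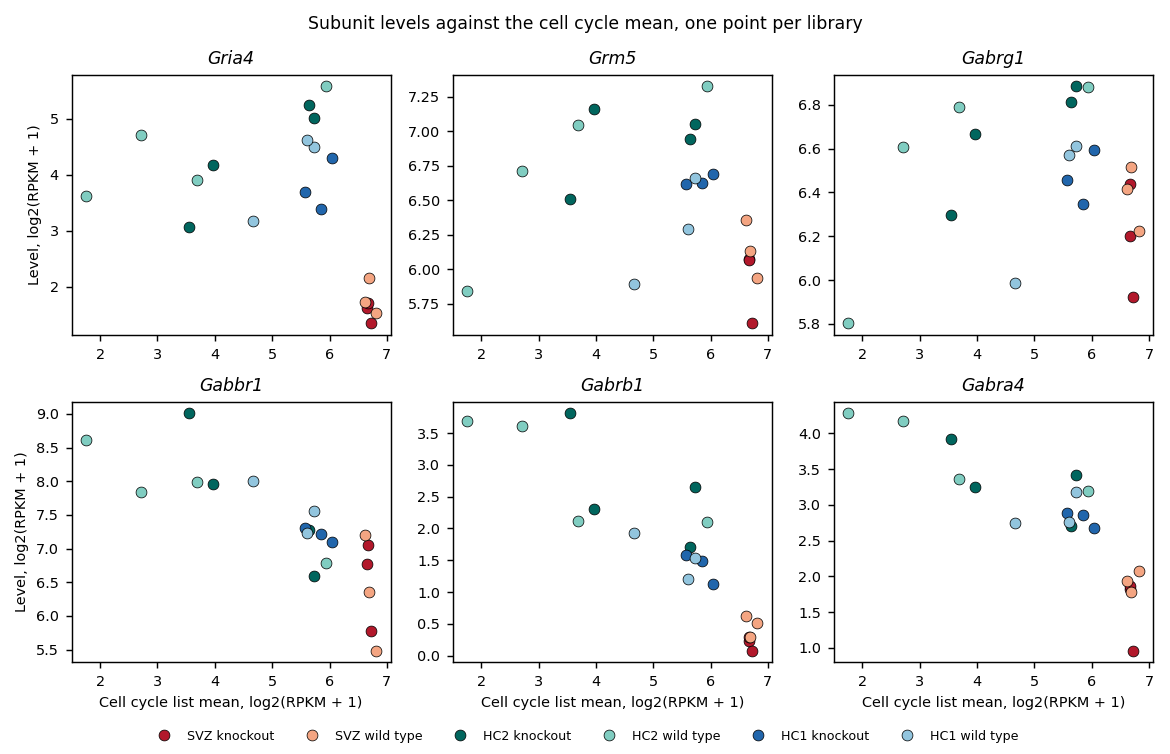
Level of 6 members against the mean of 38 cell cycle genes, both in log2(RPKM + 1), with a point for each library coloured by group. Gria4, Grm5 and Gabrg1 go up with the mean among HC2 libraries and Gabbr1, Gabrb1 and Gabra4 go down, while the 6 SVZ libraries sit together at 6.62 to 6.81.

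Genes that accompany the receptors were counted from lists of glutamate receptor partners (auxiliary subunits, scaffolds and secreted organisers) and GABA receptor partners. Of 42 tested glutamate partners 4 were higher and 12 lower in SVZ than in HC1, with a median log2 difference of -0.12, and 3 higher and 17 lower in HC2, with a median of -0.23. Over all genes 34.1% were called in SVZ, with a median of -0.03, and 54.3% in HC2, with a median of -0.06. Nptx2, a secreted pentraxin that clusters AMPA receptors, had lowest, median and highest levels of 26.0, 41.8 and 59.4 RPKM in SVZ, 1.33, 7.11 and 25.4 RPKM in HC2 and 4.55, 11.4 and 19.8 RPKM in HC1 spheres. Its log2 difference was 1.74 in SVZ, beside Homer2, a scaffold of metabotropic receptors (0.81), and the cerebellin Cbln4 (0.51). Lower in SVZ were the AMPA auxiliary subunits Gsg1l (-1.59) and Shisa9 (-1.46) and the scaffold Dlgap1 (-1.49).

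Higher in HC2 were the pentraxin receptor Nptxr (0.80) and the scaffolds Shank3 (0.71) and Homer3 (0.31). Lower in HC2 were Neto1, an auxiliary subunit of kainate receptors, and Olfm2, an olfactomedin. Neto1 had 4, 6.41 and 12.6 RPKM in HC2 against 20.0, 33.0 and 51.5 RPKM in HC1 as lowest, median and highest (log2 difference -2.06), and all HC2 libraries lay below all HC1 libraries. Olfm2 differed by -2.39. On the cell cycle mean 14 of the 42 glutamate partners had a positive and 4 a negative slope, where 20.0% and 12.9% of all genes did, led by Nptx2 (0.93), Olfm2 (0.75) and Nptx1 (0.62) and by Shisa9 (-0.49), Dlgap1 (-0.26) and Cacng7 (-0.22).

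Of 21 tested GABA partners 2 were higher and 8 lower in SVZ (median -0.19), and 4 higher and 8 lower in HC2 (median -0.27), beside the same 34.1% and 54.3% of all genes. Lower in SVZ were Slitrk3, an adhesion protein of inhibitory synapses (-1.22), Lhfpl3 (-1.19) and Kctd12b (-0.88), and higher were Zdhhc3, a palmitoyltransferase of gamma subunits (0.40), and Ubqln1 (0.23). Kctd12, an auxiliary subunit of GABA-B receptors, had 7.75, 9.68 and 17.3 RPKM in HC2 against 1.43, 2.18 and 4.69 RPKM in HC1 as lowest, median and highest, with no overlap (log2 difference 1.82). Clptm1, which holds GABA-A receptors back in the cell, and Zdhhc3 were higher by less (0.34 and 0.31). Lower in HC2 were Nlgn2, the neuroligin of inhibitory synapses (-1.43), Slitrk3 (-1.42) and Gabarapl2 (-1.04). On the cell cycle mean 4 of the 21 GABA partners had a positive and 2 a negative slope, near the 20.0% and 12.9% of all genes. Positive were among others Plcl2 (0.38), Plcl1 (0.15) and Trak2 (0.13), and negative Gabarap (-0.24) and Trak1 (-0.16). No glutamate or GABA partner was called between knockout and wild type in any kind of sphere. Of 5 glycine receptor genes Glrb alone was tested, and it was lower in HC2 (-0.35).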

How the data were processed

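The data are RNA sequencing libraries of neurospheres. Per the labels' protocols, ribosomal RNA was removed from total RNA, stranded libraries were enriched with mouse exon probes, and pairs of 100 bases were read. FastQC 0.11.5, DESeq2 and the build mm10 (GRCm38) are named in the submitters' processing notes. Aligner, counter, gene lengths and strand use: not given in the sources used here. Values deposited by the authors are RPKM, per the file headers, written with decimal commas, and a blank was read as 0. Depth was estimated here from steps between low values of single-exon genes, 5 to 22 genes a library. Of the low read counts it implies, 33.3% to 44.7% a library lay within 0.1 of a whole number, so the depths are approximate. Genes with at least 0.5 RPKM in 3 libraries were kept (16403 of 36724).

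limma 3.58.1 in R 4.3.3 was fitted to log2(RPKM + 1) with a mean for each of the 6 groups, 14 residual degrees of freedom and eBayes with trend and robust. No count model suits RPKM, and a difference on this scale understates the change of low genes. Adjusted p-values are two-sided and Benjamini-Hochberg adjusted over all kept genes, with a threshold of 0.05. The fit was tested on simulated data. Slopes came from the same fit with the mean of 38 cell cycle genes added. Libraries of a group are separate mouse numbers in the labels and were treated as independent, though some numbers recur between groups.

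The members and lists were chosen with earlier results of these data known. Values by library or (over 5 libraries) by lowest, median and highest level are given for the 20 called members with the largest differences whose mean reached 1 RPKM in some group, and for the highest member of each family, and up to 3 called partner genes per direction, list and comparison are named, while a few of these genes are not reported here. Alternatives were another pseudocount (0.1), no filter, the authors' filtered gene list, median ratio rescaling, eBayes without trend or robust, only the groups compared, the cell cycle mean as a covariate, a replicate block, single genotypes, and each library left out in turn. The comparison within wild types was added after seeing the data. Promoter sequences are from RefSeq, and 32 of 47 members had one.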

Additional observations from a re-analysis of the deposited data

Results flagged for a closer look

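In 3 of 58 groups of 4 libraries examined, the gap of 1 library to its nearest neighbour took up more of the group's range than Dixon's critical value for 4 libraries, which chance gives in about 1 of 20 groups. Gabrb2 stood at 5.48 RPKM in HC2 knockout replicate 1 (gap over range 0.944), above 1.54 to 1.67 RPKM in the other knockouts. Gabrg3 stood at 1.15 RPKM in HC2 knockout replicate 4 (0.921), below 1.79 to 1.85 RPKM. Grik2 stood at 19.3 RPKM in HC2 wild type replicate 2 (0.920), below 31.1 to 32.3 RPKM in the other wild types.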

How the results depend on the processing

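In all 6 knockout comparisons the count of members called stayed at 0 under every alternative run and with every library left out. A fit with the replicate block gave 0 members in SVZ and 0 in HC1, where the label numbers are shared. At an unadjusted p of 0.05 it gave 2 and 1 members. The share of all genes at that p was not counted in this fit, so these counts have no background beside them. Between knockout and wild type in SVZ and HC1, libraries with the same number had deviations from the group means that correlated at -0.259 to 0.00726. Here 1 of 6 correlated best with its own number. With 3 libraries per group this cannot show whether such libraries share more than the number. The 4 pairs of libraries of different kinds of sphere whose mouse number, genotype and donor sex recur had correlations of -0.0537 to 0.0248 and were treated as independent. SVZ minus HC1 gave 19 members, 15 to 20 with a library left out, 11 within knockouts, 11 within wild types, 12 without the libraries labelled SVZ knockout replicate 2 and SVZ wild type replicate 3, and 18 to 22 otherwise. HC2 minus HC1 gave 12 members, 9 to 13 with a library left out, 5 within wild types, 8 within knockouts and 11 to 13 otherwise. The slope on the cell cycle mean gave 12 members, 7 to 13 with a library left out, 0 without HC2, 8 within HC2 and 10 to 13 otherwise. The slope of Gabra4 reversed to 0.14 without HC2, and no other called member changed sign under an alternative. The causes were not tested, except that single genotypes and dropped groups leave fewer libraries.

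Limits come from the 3 or 4 libraries per group, the SVZ labels that Egfl7 contradicts, the sex of HC1 wild types, and culture day and sphere round that differ with the kind of sphere. Round 2 libraries were the deeper ones. Genes near 0.5 RPKM, such as Grin2a, Grin2b and Gabra5, rest on few reads. Probes and unstated gene lengths limit comparison of levels between genes.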
